A study of Mus musculus with 50 samples.

Results

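The genes described here are 34 imprinted genes of the mouse, taken by symbol from the 24391 genes of the deposited RNA-seq tables. In textbook knowledge 15 of them are expressed from the maternal copy, 18 from the paternal copy, and Gnas from either copy depending on the isoform. They were measured in poly(A) RNA of 8 libraries. Embryonic stem (ES) cells were wild type, RepB+/- or RepB-/-, with 2 libraries each, and mouse embryonic fibroblasts (MEF) were wild type or had lost Repeat B, with 1 library each. Repeat B (RepB) is a tandem repeat inside Xist, the long non-coding RNA that coats the inactive X chromosome, and the study asks what its loss does to Polycomb complexes and to that chromosome. All cells come from crosses of the strains CAST/Ei and 129/Sv/Jae, so that a read over a strain variant can be given to 1 of the 2 chromosomes where both strains are present. In the ES cells long autosomal stretches gave almost only 129 reads. The labels say neither which strain was the mother, nor which Xist copy lost the repeat in RepB+/-, nor whether the RepB MEF lost it from 1 or both copies, nor whether the libraries of a genotype came from separate cultures or clones. P-values therefore measure the spread between these libraries. ES cells had been taken off their fibroblast feeders and differentiated, first for 4 days as embryoid bodies and then for 10 days on plates, so that these libraries are of differentiated cultures and not of stem cells alone.

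Imprinted genes are expressed mainly or only from the copy inherited from 1 parent, because DNA methylation set in the egg or sperm marks control regions differently on the 2 copies. Most lie in clusters, and several clusters make a long non-coding RNA (H19, Meg3, Airn, Kcnq1ot1) from the copy on which neighbouring protein-coding genes are silent. Many of their products set the growth of embryo and placenta, and in broad terms paternally expressed genes favour growth and maternally expressed genes restrain it. The zinc finger protein ZFP57 binds the methylated motif TGCCGC at imprinting control regions and keeps their methylation through early development.

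Library totals were 8000722 to 28045645 counts in ES and 12126941 and 18631736 in MEF, of which 26.7% to 28.0% could be given to a strain. Xist itself stood at 782 to 1161 CPM (counts scaled to the library total) in the ES libraries and at 405 and 526 CPM in wild-type and RepB MEF, and such counts cannot check the loss of an internal repeat. The summed level of 8 fibroblast markers was 17538 to 30464 CPM in ES and 34515 and 37234 CPM in MEF. All 8 were detected in wild-type MEF, while Thy1 had 117 counts there and 0 in RepB MEF. In ES cultures 7 of 8 pluripotency markers rose with either RepB genotype, where 9.12% of all genes rose in RepB+/- and 7.27% in RepB-/-. The eighth, Klf4, fell in RepB+/- (log2 change -0.51, edgeR adjusted p 0.013) and did not pass in RepB-/- (-0.24). Over the 8 markers the summed level was 197 and 227 CPM in wild type and 424 to 678 CPM in the RepB libraries. In the same comparisons 6 of 7 cardiac markers fell, and of 7 endoderm and yolk sac markers 6 rose in RepB+/- and 3 in RepB-/-. In bulk libraries fewer cells of a type and less RNA per cell cannot be told apart, and the part of cell composition in the changes below was not tested.

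The imprinted genes covered a wide range of levels in the ES cultures. On the RPKM scale (reads scaled by gene length and library total), which allows levels of different genes to be compared, H19 stood highest at 5907 to 10023 over the 6 ES libraries. H19 is the non-coding RNA of the Igf2 cluster. The next levels were those of the retrotransposon-derived placental gene Peg10 (450 to 806 RPKM), the zinc finger genes Plagl1 (522 to 697) and Peg3 (458 to 552), and the growth gene Mest (320 to 523). The ranges of these 4 overlapped, so their order is not fixed by the libraries. Igf2, the fetal growth factor, stood at 204 to 306 RPKM. At the other end Slc22a18, Zim1, Nap1l5, Magel2 and Kcnq1ot1 had at most 1.33 RPKM in any ES library, and Snrpn had at most 1 count in each, so that 33 of the 34 genes could be tested. Snurf, which overlaps Snrpn, also stood near 0, with means of 0.025 CPM in wild-type ES, 0.062 in RepB+/- and 0.023 in RepB-/-. How reads shared by overlapping genes were counted is not given, so these counts do not show that Snrpn is silent.

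Against wild-type MEF, 18 of 30 measured imprinted genes were more than 4-fold higher in wild-type ES and 2 were more than 4-fold lower, where 16.2% and 4.03% of 13217 genes were. The median log2 difference was 2.42 for the imprinted genes and 0.30 for all genes. Igf2 had 1 count in wild-type MEF and 4 in RepB MEF, although H19, its neighbour, had 4014 and 270. The 2 genes higher in MEF were Grb10, an adaptor that restrains insulin and growth factor signalling, at 151 RPKM in MEF and 2.19 to 7.42 in ES, and the zinc finger gene Zim1. With 1 wild-type MEF library this comparison has no test.

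In RepB+/- ES cells 4 of the 33 imprinted genes rose and 5 fell against wild type, and in RepB-/- cells 1 rose and 7 fell (edgeR's quasi-likelihood test, Benjamini-Hochberg adjusted p under 0.05 over all 15149 genes). Over all genes tested 9.12% rose and 6.84% fell in RepB+/-, and 7.27% rose and 5.49% fell in RepB-/-. The imprinted genes that fell were 15.2% and 21.2% of those tested, and those that rose 12.1% and 3.03%. The median log2 change of the imprinted genes was -0.01 in RepB+/- and -0.05 in RepB-/-, and that of all genes 0.02 and 0.01. Among the 15 maternally expressed genes 1 rose and 4 fell in RepB+/- and 1 rose and 6 fell in RepB-/-. Among the 17 paternally expressed genes tested 3 rose and 1 fell in RepB+/-, and 0 rose and 1 fell in RepB-/-. Both comparisons use the same 2 wild-type libraries, so that they are not independent of each other. For every called gene the libraries compared did not overlap. With 2 libraries a group this was also so for genes not called, such as Copg2, Kcnq1ot1 and Ndn in RepB+/-. It therefore adds nothing to the calls.

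**Figure D1:**
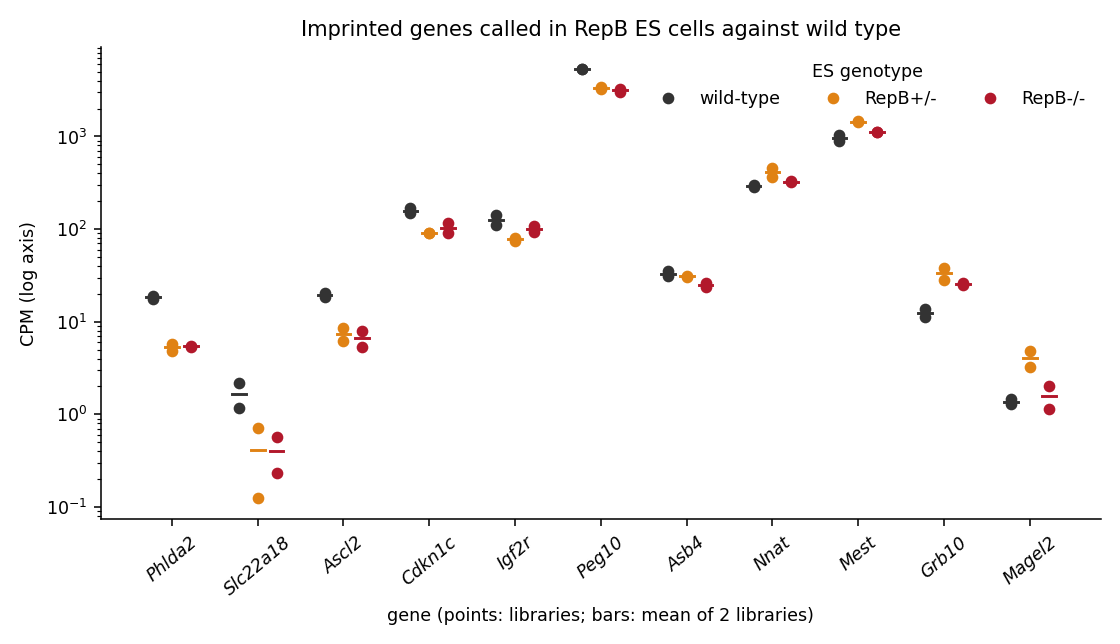
Levels of the 11 imprinted genes called in at least 1 comparison with wild type, in CPM on a log axis. Points are the 6 ES libraries and bars are means of 2 libraries. Phlda2, Ascl2 and Cdkn1c are lower in all 4 RepB libraries than in both wild-type libraries, and Grb10 is higher.

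Some maternally expressed genes at the distal end of chromosome 7 fell, in the cluster whose paternal copy makes Kcnq1ot1. In mm9, where 1 exon per gene is given, these are Ascl2 at chr7:150152727-150153244, Cdkn1c at chr7:150644244-150644926 and Phlda2 at chr7:150687453-150687721. All lie on the minus strand. Phlda2, which encodes a pleckstrin homology protein that limits growth of the placenta, stood at 17.6 and 19.1 CPM in the wild-type libraries, at 5.79 and 4.87 in RepB+/- and at 5.53 and 5.31 in RepB-/-. All 4 RepB libraries were below both wild-type libraries. The log2 change was -1.84 ± 0.18 (SE) in RepB+/- with an edgeR adjusted p of 1.9e-05, and -1.84 ± 0.17 in RepB-/- with an adjusted p of 1.2e-05. Ascl2, a transcription factor gene needed for the spongiotrophoblast of the placenta, stood at 18.3 and 20.6 CPM in wild type, at 8.48 and 6.25 in RepB+/- and at 7.88 and 5.36 in RepB-/-. Again the RepB libraries were all lower, with log2 changes of -1.44 ± 0.20 (edgeR adjusted p 0.00026) and -1.63 ± 0.19 (adjusted p 8.2e-05). Cdkn1c, which encodes the cell cycle inhibitor p57, stood at 148 and 167 CPM in wild type, at 90.7 and 89.99 in RepB+/- and at 117 and 90.1 in RepB-/-. Its log2 change was -0.88 ± 0.13 in RepB+/- and -0.69 ± 0.13 in RepB-/-, with edgeR adjusted p-values of 0.00036 and 0.0021. These calls held in each of 6 fits that left out 1 library, that of Cdkn1c in RepB-/- only just.

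Slc22a18, a transporter gene between Cdkn1c and Phlda2, was scarce, at 1.17 and 2.16 CPM in wild type, 0.71 and 0.12 with RepB+/- and 0.57 and 0.23 with RepB-/-. Its log2 change of -2.02 ± 0.56 passed in RepB-/- (edgeR adjusted p 0.026), and the -1.67 ± 0.58 in RepB+/- did not (adjusted p 0.061). The call ended without wild-type replicate 2 (log2 change -1.53, adjusted p 0.28), without RepB-/- replicate 1 (-2.84, 0.072) and without RepB-/- replicate 2 (-1.60, 0.24). Kcnq1ot1, the paternally expressed non-coding RNA of the cluster, stood at 49.6 and 48.9 CPM in wild type, 54.0 and 61.2 with RepB+/- and 45.4 and 64.4 with RepB-/-, and passed in neither comparison. It lies within Kcnq1 on the opposite strand. Since the strand setting of the counting is not given in the sources used here, reads of the 2 genes cannot be told apart. Cd81, Tssc4, Nap1l4, Osbpl5, Kcnq1 and Tspan32, imprinted genes of this cluster outside the 34, were called in neither comparison. Their log2 changes in RepB+/- and RepB-/- were -0.16 and -0.10 for Cd81, -0.19 and -0.24 for Tssc4, and 0.05 and 0.03 for Nap1l4. For Osbpl5 they were -0.12 and -0.15, for Kcnq1 -0.25 and -0.68, and for Tspan32 0.72 and 0.60. Kcnq1 and Tspan32 were scarce.

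Phlda2, Ascl2 and Cdkn1c are strongly expressed in placental lineages, and markers of these lineages moved with them. Of 8 tested trophoblast and placenta markers 0 rose and 5 fell in each comparison, where 6.84% and 5.49% of all genes fell. Gata3 (log2 change -1.18 in RepB+/- and -1.15 in RepB-/-) and Tfap2c (-0.81 and -0.78) were among the 5. Gata3 also stood at 30.0 and 32.6 CPM in wild-type and RepB MEF, so it is not particular to placental lineages. The summed level of the 9 listed markers was 671 and 729 CPM in wild type and 434 to 497 CPM in the RepB libraries. Hand1, 1 of the 5 that fell, is also 1 of the 6 cardiac markers that fell, at 253 and 291 CPM in wild type and 127 to 146 CPM in the RepB libraries. Without it, a sum taken after these values were seen, the other 8 markers stood at 418 and 438 CPM in wild type and at 298 to 352 CPM in the RepB libraries. The defining markers were low in all ES libraries, with Cdx2 at 4.67 to 8.08 CPM, Elf5 at 0 to 1.22 CPM and Prl3d1 at 0 to 2 counts. The part of these cells in the change of the 3 genes was not tested. In MEF, Phlda2 had 0 and 3 counts and Ascl2 0 in both libraries.

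Grb10 (exon at chr11:11830502-11833612 of mm9, minus strand) moved the other way from the other maternally expressed genes that were called. It stood at 13.6 and 11.3 CPM in wild type, at 38.3 and 28.1 in RepB+/- and at 26.0 and 25.1 in RepB-/-. All 4 RepB libraries were above both wild-type libraries. The log2 change was 1.35 ± 0.15 in RepB+/- (edgeR adjusted p 4.2e-05) and 0.95 ± 0.15 in RepB-/- (adjusted p 0.00057), and both calls held in each fit that left out 1 library. Grb10 RNA was far more abundant in MEF, at 779 and 532 CPM, and the part of fibroblasts in its level in ES cultures was not tested. The summed fibroblast markers overlapped between the genotypes, at 20396 and 24649 CPM in wild type, 17538 and 30464 with RepB+/- and 20003 and 22891 with RepB-/-. Of 8 such markers, 1 rose and 1 fell in RepB+/-, while 2 rose and 1 fell in RepB-/-.

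Igf2r, the receptor that removes IGF2 from the cell surface, stood at 112 and 141 CPM in wild type, at 81.1 and 74.0 in RepB+/- and at 107 and 92.8 in RepB-/-. It fell in RepB+/- by 0.78 ± 0.13 on the log2 scale (edgeR adjusted p 0.00088), a call kept without any 1 library. In RepB-/- it fell by 0.42 ± 0.12 (adjusted p 0.035), and that call ended without wild-type replicate 2 (log2 change -0.22), without RepB-/- replicate 1 (-0.51) and without RepB-/- replicate 2 (-0.34). Airn, the paternal non-coding RNA that overlaps Igf2r on the other strand, ranged from 18.2 to 25.3 CPM and passed in neither comparison. Asb4, a maternally expressed gene of an ankyrin repeat protein, stood at 30.9 and 35.3 CPM in wild type and at 26.1 and 23.6 in RepB-/-, and fell there by 0.50 ± 0.13 (adjusted p 0.018). Its RepB+/- libraries (31.2 and 30.5) lay between these, with a change of -0.18 that did not pass. The Asb4 call ended when wild-type replicate 2 was left out (-0.36) and likewise for RepB-/- replicate 1 (-0.56) or 2 (-0.44).

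Of the paternally expressed genes, Peg10 was the one that fell. It stood at 5331 and 5372 CPM in wild type, at 3251 and 3381 in RepB+/- and at 3279 and 3001 in RepB-/-. The RepB libraries lay together well below the wild-type libraries. The log2 change was -0.76 ± 0.19 in RepB+/- (edgeR adjusted p 0.013) and -0.85 ± 0.19 in RepB-/- (adjusted p 0.0074). In RepB+/- it ended without wild-type replicate 1 (-0.81, adjusted p 0.080) and replicate 2 (-0.73, 0.14). In RepB-/- it ended without either of these (-0.90 and -0.82) and without RepB-/- replicate 1 (-0.90) or 2 (-0.81). Sgce, which shares a promoter region with Peg10 and is also paternally expressed, stood at 171 to 207 CPM in all 6 libraries and passed in neither comparison (log2 changes 0.03 and -0.03).

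Mest, Nnat and Magel2 rose in RepB+/- but did not pass in RepB-/-. Mest, which encodes a hydrolase-fold protein tied to fetal growth, stood at 1047 and 890 CPM in wild type, 1427 and 1451 with RepB+/- and 1122 and 1129 with RepB-/-. Its log2 change in RepB+/- was 0.50 ± 0.15 (edgeR adjusted p 0.030). Nnat, the gene of the membrane proteolipid neuronatin, stood at 300.1 and 283 CPM in wild type, 368 and 457 with RepB+/- and 321 and 329 with RepB-/-, with a log2 change of 0.43 ± 0.14 in RepB+/- (adjusted p 0.045). Magel2, a gene of the Prader-Willi cluster, was scarce, at 1.47 and 1.28 CPM in wild type, 4.78 and 3.25 with RepB+/- and 1.14 and 2.03 with RepB-/-, with a log2 change of 1.496 ± 0.36 in RepB+/- (adjusted p 0.011). Of 5 tested neuronal markers 2 rose and 1 fell in each comparison, where 9.12% and 7.27% of all genes rose and 6.84% and 5.49% fell. The summed neuronal markers were 119 and 110 CPM in wild type, 202 and 196 with RepB+/- and 178 and 163 with RepB-/-. Their part in the levels of Nnat and Magel2 was not tested.

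The calls of Mest, Nnat and Magel2 rested on few libraries. That of Mest ended without wild-type replicate 1 (log2 change 0.58) or 2 (0.42) and without RepB+/- replicate 2 (0.41). That of Magel2 ended without wild-type replicate 1 (1.57) or 2 (1.44) and without RepB+/- replicate 1 (1.22). That of Nnat ended without any 1 library except RepB+/- replicate 1, falling to 0.18 without RepB+/- replicate 2 and lying between 0.42 and 0.43 in the other 4 fits. Mest also lost its call when RepB+/- and wild type were fitted alone (0.51, adjusted p 0.057), and Nnat lost it in that fit (0.44, 0.062) and with scaling by relative log expression (0.42, 0.056).

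Between the RepB genotypes 0 imprinted genes were called by edgeR, with 6 at an unadjusted p under 0.05, and 0 by DESeq2, where 0.0198% of all genes rose and 0.0660% fell by edgeR. The 6 were Magel2 (log2 change from RepB+/- to RepB-/- of -1.41), Grb10 (-0.40), Igf2r (0.36), Nnat (-0.36), Mest (-0.37) and Asb4 (-0.32). So the differing calls of Mest, Nnat, Magel2, Asb4 and Slc22a18 against wild type do not by themselves show a difference between the genotypes. For Magel2 this depended on the fit. It was called lower in RepB-/- than in RepB+/- with no filter on low counts (-1.40, edgeR adjusted p 0.0027), with a replicate block (-1.44, 0.047) and without RepB+/- replicate 2 (-1.55, 0.046). Nnat was called lower without RepB+/- replicate 1 (-0.57, 0.047).

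The other 22 imprinted genes were called in no ES comparison, with log2 changes between -0.45 and 0.41. They included the growth-related genes Igf2 (863 to 1297 CPM), Dlk1 (585 to 871 CPM), Peg3 (3035 to 3659 CPM) and Plagl1 (2748 to 3666 CPM). They also included the non-coding RNAs H19, Meg3, Rian, Mirg, Airn and Kcnq1ot1. H19 stood at 15980 and 15483 CPM in wild type, 15153 and 22933 with RepB+/- and 15075 and 13515 with RepB-/-, so that 1 RepB+/- library stood above the rest and the other lay below wild type. Meg3 stood at 2501 and 3250 CPM in wild type, 2332 and 3636 with RepB+/- and 1861 and 2602 with RepB-/-, and its 3 genotypes overlapped. Its small RNA hosts were steadier, with Rian at 397 to 497 CPM and Mirg at 77.4 to 92.0 CPM over the 6 libraries.

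Of the others among the 22, Copg2, a subunit of the COPI vesicle coat, ranged from 61.4 to 80.3 CPM, Blcap from 52.3 to 63.1, Impact from 140 to 192, Commd1, a copper and NF-kappaB regulator gene, from 16.2 to 24.6, Inpp5f, a phosphoinositide phosphatase gene, from 51.5 to 58.7 and Gnas from 1811 to 2273. Zrsr1, a splicing factor retrogene, ranged from 59.7 to 76.0 CPM, and Usp29 from 36.6 to 49.3. Of the 22, Zrsr1 (log2 change -0.31, edgeR adjusted p 0.091) and Dlk1 (-0.38, adjusted p 0.14) were those with an unadjusted p under 0.05, both in RepB+/-. Nap1l5 (at most 1.46 CPM) and Zim1 (at most 2.00 CPM) were scarce in all 6 libraries.

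Of 36 tested imprinted genes outside the 34, 8 rose and 3 fell in RepB+/- and 4 rose and 2 fell in RepB-/-. Over all genes 9.12% rose and 6.84% fell in RepB+/-, and 7.27% rose and 5.49% fell in RepB-/-. Ddc, the decarboxylase gene next to Grb10, rose by 1.26 and 1.37 (log2), and Cobl, on the far side of Grb10, by 1.26 and 1.25, so that neighbours of Grb10 rose with it. Sfmbt2, a Polycomb-related gene expressed in placenta, fell by 0.88 and 0.85. Of 10 factors that maintain imprints, beside the same shares of all genes, 2 rose and 0 fell in RepB+/- and 1 rose and 0 fell in RepB-/-. Dppa3 rose in both (2.03 and 1.78), and Zfp57 in RepB+/- (0.43). In both comparisons 7 of 8 pluripotency markers rose as well, and the part of pluripotent cells in the Dppa3 change was not tested.

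The 2 MEF libraries were compared by fold alone, without a test, so their counts are not set against the ES calls. Of 26 imprinted genes with an average of at least 1 CPM, 11 were more than 2-fold lower in RepB MEF and 0 were more than 2-fold higher, where 6.47% of 11680 genes were lower and 3.33% higher. That is 42.3% of the measured imprinted genes. Their median log2 ratio was -0.54, against 0.03 for all genes. Each group is 1 library, so there is no replicate check and the ratios compare 2 libraries, not conditions. Ratios and folds are of TMM-scaled CPM after a prior count of 2, which draws the folds of low counts, such as those of Mirg and Asb4 below, under the plain CPM ratio. Both parental classes were among the 11, with 7 of 12 maternally and 4 of 13 paternally expressed genes.

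**Figure D2:**
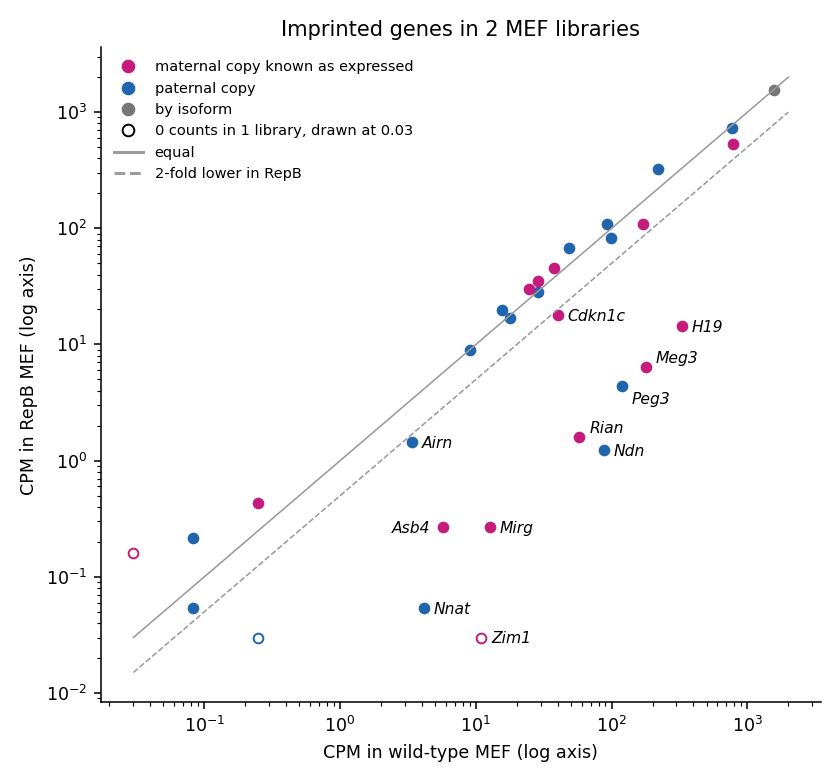
Levels of the imprinted genes in the 2 MEF libraries, in CPM on log axes, with 1 point per gene that had a count in either library. The named genes lie below the dashed line of a 2-fold lower level in RepB MEF, and points near the solid line have equal levels.

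In the Dlk1-Meg3 cluster on chromosome 12 the maternally expressed non-coding RNAs were lower together. Meg3 stood at 179 CPM in wild-type MEF and 6.39 in RepB MEF, Rian, a host of small nucleolar RNAs, at 57.9 and 1.61 CPM, and Mirg, a host of microRNAs, at 12.6 and 0.27 CPM. The levels were 30.1-fold, 36.4-fold and 34.6-fold lower. These RNAs lie in 1 row on the same strand and may be parts of 1 long transcript, so they are not independent of each other. Dlk1, the paternally expressed gene of the cluster for a Delta-like membrane protein, stood at 770 and 728 CPM, a log2 ratio of -0.21. The median log2 ratio of 68 genes within 5 Mb of Meg3 was -0.06. The Meg3 promoter is shown because it serves the first of the RNAs that were lower. The sequence is the 250 bases before the transcript start in RefSeq's GRCm38.p6 (chr12:109540746-109540995, plus strand), and capitals mark the ZFP57 motif TGCCGC or its reverse complement GCGGCA.

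Meg3: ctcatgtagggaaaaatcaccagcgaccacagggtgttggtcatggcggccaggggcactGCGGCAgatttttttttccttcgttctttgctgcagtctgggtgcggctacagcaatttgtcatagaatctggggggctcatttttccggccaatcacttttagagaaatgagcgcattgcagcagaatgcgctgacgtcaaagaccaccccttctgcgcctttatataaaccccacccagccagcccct

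In the Peg3 cluster at the proximal end of chromosome 7, the paternally expressed Peg3 stood at 119 CPM in wild-type MEF and 4.35 in RepB MEF, 29.2-fold lower. The maternally expressed Zim1 had 133 counts and 0, at least 68.1-fold lower when a floor of 3 counts in the RepB library is used, by plain CPM. Usp29, read from the Peg3 promoter region in the other direction, had 3 counts and 0, too few to compare. Genes known from either parental copy of this cluster were thus lower. The Zim1 promoter is shown because Zim1 went from a clear level to 0 counts (GRCm38.p6, chr7:6696433-6696682, minus strand, capitals as above).

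Zim1: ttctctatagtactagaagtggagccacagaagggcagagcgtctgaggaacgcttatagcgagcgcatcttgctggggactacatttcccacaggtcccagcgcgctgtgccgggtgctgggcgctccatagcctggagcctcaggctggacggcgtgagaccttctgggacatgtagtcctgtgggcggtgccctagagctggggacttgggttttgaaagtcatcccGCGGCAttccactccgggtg

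H19 stood at 331 CPM in wild-type MEF and 14.5 CPM in RepB MEF, 24.8-fold lower. Ndn, a paternally expressed gene of the Prader-Willi cluster whose product restrains cell division, stood at 87.5 and 1.23 CPM, 70.1-fold lower. Asb4 had 69 and 5 counts, 15.8-fold lower. Nnat had 50 counts and 1, a plain CPM ratio of 0.0130 without prior count or TMM, with a 95% counting interval from 0.000323 to 0.0759 (log2 ratio with the prior count -4.63). Cdkn1c stood at 40.2 and 17.9 CPM, 2.45-fold lower, and Airn had 41 and 27 counts, 2.42-fold lower. The 95% counting intervals of their plain CPM ratios, 0.386 to 0.513 for Cdkn1c and 0.254 to 0.714 for Airn, reached above the ratio of a 2-fold decrease. Cdkn1c was called lower in RepB ES cells, and its MEF ratio, of 1 library each and without a test, had the same sign. The Kcnq1ot1 level was 8.99 and 8.96 CPM in the 2 MEF libraries.

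The remaining 15 measured imprinted genes had log2 ratios between -0.77 and 0.44. They included Gnas, which encodes the stimulatory G protein alpha subunit (1577 and 1544 CPM), Impact, a translation regulator gene (28.7 and 28.0 CPM), Peg10 (92.8 and 109 CPM), Sgce (48.5 and 67.8 CPM) and Mest (220 and 326 CPM). The genes that were lower lay on chromosomes 2, 6, 7, 12 and 17, and the medians of their chromosomes were near 0. The median log2 ratio was -0.13 over 856 genes of chromosome 7 and 0.07 over 419 of chromosome 12. Of 25 measured imprinted genes outside the 34, 1 was more than 2-fold higher (Dlx5, 2.07) and 5 were lower (Qpct -4.06, Dcn -3.11, Dio3 -2.68, Begain -1.95 and Atp10a -1.16). Dio3 and Begain also lie in the Dlk1-Meg3 region.

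Cell type markers differed between the MEF libraries too. Of 8 fibroblast markers 0 were more than 2-fold higher and 1, Thy1, was lower (log2 ratio -6.31). Of 4 measured neuronal markers 2 were lower, Stmn2 (-4.36) and Tubb3 (-1.94). The summed neuronal markers were 298 CPM in wild-type and 187 CPM in RepB MEF, with 3 of 7 markers at 0 in each. Their part in the levels of Nnat, Ndn and the other neuronally expressed imprinted genes was not tested.

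In MEF both strains were read at autosomal genes, and the imprinted genes split by their known parental copy. Of the 22 with at least 20 allelic reads in wild-type MEF, 17 had at most 10% or at least 90% of them from 129, or 77.3%, where 2.60% of 9072 autosomal genes did. All 8 one-sided maternally expressed genes were on the 129 side and all 9 one-sided paternally expressed genes on the CAST side. In RepB MEF 11 of 17 were one-sided (64.7%, where 3.43% of 9681 genes were), with 4 maternal genes on the 129 side, 7 paternal genes on the CAST side and 0 the other way round. The genes within 5 Mb of each had median 129 shares of 43.8% to 54.1% in wild-type MEF.

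**Figure D3:**
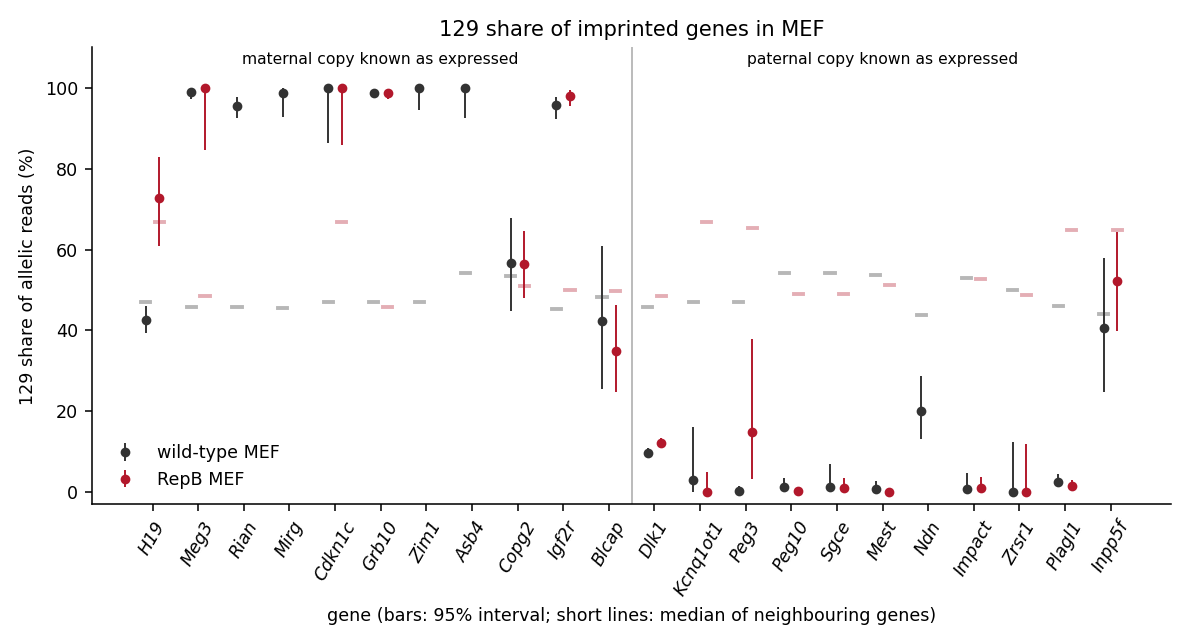
Share of allelic reads from 129 for each imprinted gene with at least 20 allelic reads, in wild-type MEF (dark) and RepB MEF (red). Points carry exact 95% Clopper-Pearson intervals, and pale short lines are the median share of genes within 5 Mb. Most maternally expressed genes lie at the top and most paternally expressed genes at the bottom, while H19, Copg2, Blcap and Inpp5f lie between 34.9% and 72.9%, nearer their neighbours.

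Several genes gave shares close to 0 or 100% with many reads. Grb10 had 98.8% of 593 reads from 129 in wild-type MEF and 98.6% of 584 in RepB MEF. Igf2r had 95.7% and 98.0% of 253 reads each. Meg3 had 98.9% of 435 reads and 100% of 22. On the paternal side Peg10 had 1.23% of 244 and 0.20% of 501 reads from 129, Plagl1 2.55% of 431 and 1.62% of 554, Impact 0.89% of 112 and 1.04% of 193, and Mest 0.79% of 252 and 0 of 675. The 0 of 675 reads allows a share of up to 0.545% by the exact interval. These genes kept their side in RepB MEF. Mest is the example whose promoter holds 2 motifs, and it is shown for that reason (GRCm38.p6, chr6:30737800-30738049, plus strand, capitals as above).

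Mest: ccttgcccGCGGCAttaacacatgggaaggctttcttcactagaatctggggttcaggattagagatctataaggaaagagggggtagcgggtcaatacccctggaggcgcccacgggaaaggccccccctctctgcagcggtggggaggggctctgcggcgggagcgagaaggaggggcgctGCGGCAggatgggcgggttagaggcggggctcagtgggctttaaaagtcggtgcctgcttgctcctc

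The motif search covered both strands of the 250 bases before each start in the RefSeq table. Of the 34 genes 29 matched by symbol, and 6 had the motif in at least 1 promoter, where 9.84% of 27025 genes did. The 6 were Mest, Copg2, Nap1l5, Zim1, Plagl1 and Meg3. By promoter this was 7 of 44, or 15.9%, where 8.68% of all 32851 promoters had it. The 7 include 2 overlapping Mest promoters with the same motifs. The motif holds a CpG, and the median CpG count was 10 in promoters of the matched genes and 6 in all. A match is a description of letters, and imprinting control regions often lie outside such a window.

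Mest and Copg2 are neighbours that run toward each other, and they differed in MEF. Copg2, a coat protein subunit gene described as maternally expressed, had 56.6% of 76 reads from 129 in wild-type and 56.5% of 147 in RepB MEF, near the 53.5% and 51.1% of its neighbours. Blcap, in whose intron Nnat lies, had 42.4% of 33 and 34.9% of 83 reads from 129, and Inpp5f 40.5% of 37 and 52.2% of 69. Blcap is known to be imprinted mainly in brain, and for Inpp5f a short brain isoform is the imprinted one.

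H19 (exon at chr7:149761435-149762019) was the abundant exception. It had 42.6% of 880 reads from 129 in wild-type MEF (95% interval 39.3% to 46.0%), beside a neighbour median of 47.1%. In RepB MEF it had 72.9% of 70 reads (60.9% to 82.8%), beside a neighbour median of 66.8%. Both shares thus lay nearer those of surrounding genes than 0 or 100%, while Cdkn1c, in the next cluster of the same chromosome, had 100% of 25 and 100% of 24 reads from 129. Kcnq1ot1, on the same arm, had 3.13% of 32 and 0 of 72 reads from 129. Chromosome 7 as a whole gave a median 129 share of 46.1% in wild-type MEF and 65.4% in RepB MEF, so shares there are read against that level. Other chromosomes differed too. The median was 50.8% and 65.9% on chromosome 10, where Plagl1 lies, and 52.4% and 66.0% on chromosome 15. It was 50.7% and 60.4% on chromosome 3, and 57.0% and 34.1% on chromosome 4.

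Ndn was also read from both copies in wild-type MEF, with 20.2% of 114 reads from 129 (13.2% to 28.7%), beside neighbours at 43.8%. In RepB MEF 3 allelic reads were left. Of 17 imprinted genes with 20 allelic reads in both libraries, the intervals lay apart for 3, H19, Dlk1 and Peg3, where they lay apart for 22.3% of 8886 autosomal genes. That share includes genes of the chromosomes whose median differed as a whole. Dlk1 had 9.74% of 2239 reads from 129 and then 12.2% of 3319 (8.54% to 11.0% and 11.1% to 13.4%). Peg3 had 0.27% of 369 and then 15.0% of 20, the second with an interval from 3.21% to 37.9%. The intervals cover counting error only, since no molecular identifiers are stated.

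In the ES cells the allelic reads were used on chromosomes 5, 7, 9 and 13, since much of the other autosomes gave almost only 129 reads. Over the 6 libraries the neighbours of Meg3, on chromosome 12, had median 129 shares of 99.6% to 100%. Those of Igf2r, on chromosome 17, had 98.6% to 100%. All 14 imprinted genes on the 4 chromosomes lie on chromosome 7. Of 10 with at least 20 allelic reads in wild-type replicate 1, 8 had at least 90% of them from 129, where 14.7% of genes on the 4 chromosomes were one-sided. The 8 included both maternally expressed genes (H19, Cdkn1c, Phlda2, Ascl2) and paternally expressed genes (Igf2, Kcnq1ot1, Peg3, Usp29). Their neighbours had median 129 shares of 99.5% to 100% over the 6 libraries. In wild-type replicate 1 genes of chromosome 7 gave 97.6% to 100% from 129 in each 5 Mb window below 15 Mb and above 140 Mb, and 35.4% to 52.3% in between (mm9). The 129 shares of these 8 genes therefore say nothing of parental copy.

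**Figure D4:**
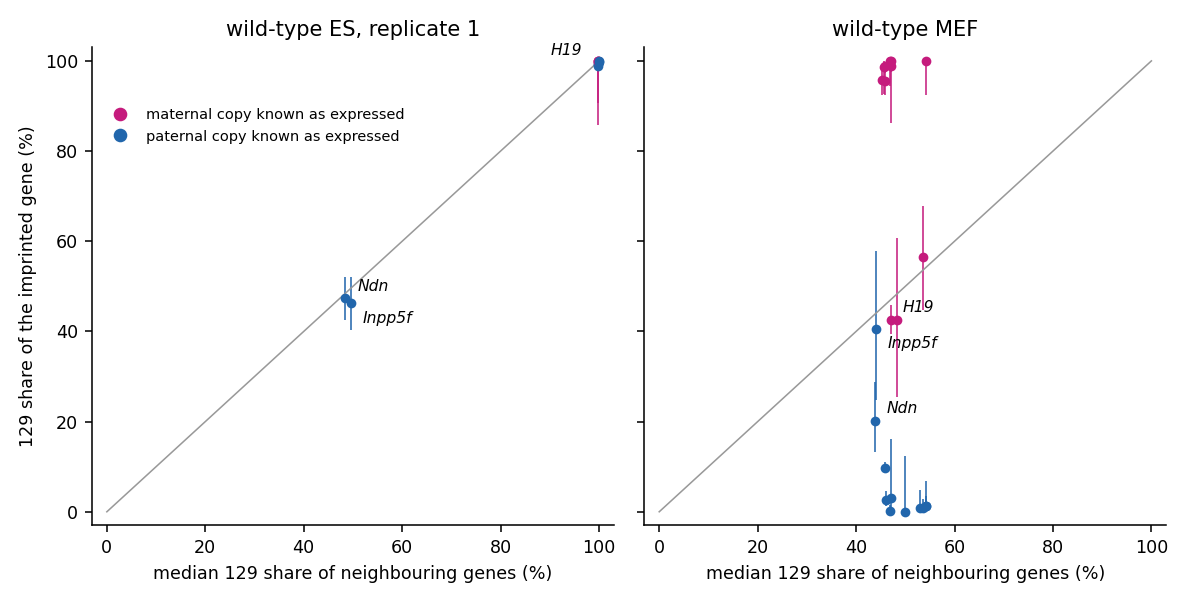
Share of allelic reads from 129 for each imprinted gene with at least 20 allelic reads (vertical, with exact 95% intervals) against the median share of genes within 5 Mb (horizontal), in wild-type ES replicate 1 on chromosome 7 and in wild-type MEF on autosomes. In the ES library all genes lie near the line of equal shares, and in MEF most lie near 0 or 100% while their neighbours lie near 50%.

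Ndn (exon at chr7:69493163-69494813) and Inpp5f (exon at chr7:135754879-135755205) lie in the middle stretch, where both copies are read. Ndn had 47.3% and 47.1% of reads from 129 in wild type, 42.9% and 47.0% with RepB+/-, and 45.5% and 46.9% with RepB-/-, on 185 to 675 allelic reads, beside neighbours at 45.1% to 51.5%. All 6 libraries thus had reads of both copies in nearly equal parts for a gene known as paternally expressed. Inpp5f had 46.2% and 50.4% in wild type, 45.1% and 49.5% with RepB+/-, and 47.2% and 43.5% with RepB-/-. The level of Ndn was 200.1 to 241 CPM in all 6 libraries. Other imprinted genes of the Prader-Willi and Angelman region were also read from both copies in wild-type ES. Peg12 had 57.0% and 44.1% from 129, Mkrn3 45.9% and 46.9%, and Ube3a, maternally expressed in neurons, 61.5% and 44.2%.

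The fitted ratio of 129 to CAST reads changed for 1 imprinted gene on chromosome 7, where 0.218% of 2747 genes on the 4 chromosomes changed between RepB+/- and wild type, 0.146% between RepB-/- and wild type, and 0.182% between the RepB genotypes. H19 had 99.48% and 99.74% of reads from 129 in wild type, 99.02% and 99.71% with RepB+/-, and 99.52% and 99.78% with RepB-/-. The libraries overlapped, and 1 of them, RepB+/- replicate 1, stood lowest. H19 lies in the outer stretch of chromosome 7, where its neighbours had a median 129 share of 99.5% to 100%. The fitted ratio of H19 therefore says nothing of parental copy. On the log2 scale the ratio changed by -0.62 ± 0.12 in RepB+/- against wild type (edgeR adjusted p 6.1e-06) and 0.80 ± 0.11 in RepB-/- against RepB+/- (adjusted p 4.8e-09). Without RepB+/- replicate 1 these were 0.38 (adjusted p 0.31) and -0.21 (adjusted p 1), so the sign turned. The first also ended without wild-type replicate 2 (-0.17) and when the 4 chromosomes were fitted alone (-0.66, adjusted p 0.47), and the second without RepB-/- replicate 2 (0.27). Ndn and Inpp5f, which lie where both copies are read, were not called.

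Reads of overlapping genes cannot be assigned with certainty where the strand setting is not given. This holds for Copg2 beside Mest, Airn beside Igf2r, Zrsr1 within Commd1, Nnat within Blcap, Nap1l5 within Herc3, and Peg3 beside Usp29. Snrpn and Snurf overlap as well, and how reads shared by genes were counted is not given. Zrsr1 had 0 of 28 and 0 of 29 reads from 129 in MEF, and Commd1, around it, had 4 and 19 allelic reads in all.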

How the data were processed

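Poly(A) RNA-seq counts of 8 libraries were used, and the other 42 samples of the series were not analysed here. The authors deposited 3 tables of raw counts per gene, with all reads, 129 reads (headed mus) and CAST reads (headed cas). Positions are mm9, per the submitters' processing notes, which name Novoalign, TopHat, featureCounts, SAMtools and bedtools among their tools. Versions, the strand setting and the handling of multiply mapped reads are not given in the sources used here. No gene was normalized by the authors, as the whole numbers and unequal library sums show.

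ES counts were fitted with edgeR 4.0.16 in R 4.3.3 (filterByExpr with a minimum count of 10 and a minimum total of 15, TMM, quasi-likelihood F-test, genotype only, all 6 libraries). Adjusted p under 0.05 over 15149 genes was the threshold. The 129 to CAST ratio used the same test with library as block and an allele-by-genotype term, on 11597 genes averaging at least 20 allelic reads. MEF ratios were taken from TMM-scaled CPM after adding a prior count of 2, for genes averaging at least 1 CPM. ES against MEF used a pseudocount of 0.1 CPM. Shares carry exact Clopper-Pearson 95% intervals (SciPy 1.17.1). Neighbour medians used non-imprinted genes within 5 Mb with at least 20 allelic reads, and at least 5 of them. The script was tested on simulated counts. Replicates of a genotype differed by more than counting noise (chi-square per degree of freedom 7.23 to 16.0). The imprinted genes, the other lists and the tests were chosen with earlier results of these data known. Every one of the imprinted genes is named or counted, called ones with full values, and of other lists at most 4 called genes. Peg12, Mkrn3, Ube3a and Snurf, and in MEF the named genes outside the 34 past 2-fold, were chosen after their values were seen. The same holds for the named genes of the Kcnq1ot1 cluster outside the 34. Promoter sequences are RefSeq's, and those of H19, Cdkn1c, Peg10, Sgce and Impact were not matched.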

Additional observations from a re-analysis of the deposited data

Results flagged for a closer look

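For 3 imprinted genes the change called in RepB ES cells and the ratio between the MEF libraries had opposite signs. This difference between cell types was not tested, since MEF have 1 library a group. Grb10 rose in ES cells by 1.35 (log2) in RepB+/- and by 0.95 in RepB-/-, while its MEF log2 ratio was -0.68. Nnat rose by 0.43 in RepB+/- ES cells, and its MEF ratio, with the prior count, was -4.63 on 50 counts and 1. Peg10 had log2 changes of -0.76 and -0.85 in ES cells and a ratio of 0.10 in MEF, near the median of 0.15 of its neighbours there. The MEF ratios of Grb10 and Peg10 lay within 2-fold.

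CAST reads also appeared in ES cells at imprinted genes off the 4 chromosomes used for allelic reads. In wild-type replicate 1, CAST gave 66.3% of the allelic reads of Peg10, 61.9% of Sgce, 77.9% of Asb4 and 68.8% of the 109 reads of Gnas. Over the 6 libraries Gnas had 31.2% to 47.1% of its reads from 129, beside neighbours at 46.5% to 50.4%. The 2 wild-type libraries had a mean Gnas share of 39.1% from 129 with an SD of 11.2, so they differed. Peg10, Sgce and Asb4 lie together on chromosome 6. Over the 6 libraries Peg10 had 29.5% to 33.8% of its reads from 129, beside neighbours at 29.3% to 34.1%. Asb4 had 20.1% to 27.1%. In wild-type MEF the same 3 genes were one-sided, with 1.23% (Peg10), 1.28% (Sgce) and 100% (Asb4) of reads from 129.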

How the results depend on the processing

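Against the 4 imprinted genes that rose in RepB+/- ES cells, 2 rose when RepB+/- and wild type were fitted alone, and 1 to 3 rose when 1 library was left out. Against the 5 that fell, 8 fell with a replicate block, and 4 to 6 without 1 library. In RepB-/- 7 fell, and 3 to 7 without 1 library. Between the RepB genotypes 0 fell, and 1 fell with no filter, 1 with the replicate block, and 0 to 1 without 1 library (Magel2 or Nnat). For the 129 to CAST ratio, 1 gene shifted toward CAST in RepB+/-, 0 when the 4 chromosomes were fitted alone, and 0 to 1 without 1 library. Without 1 library, 0 to 1 shifted toward 129 in RepB-/- against wild type and against RepB+/-. The H19 shift ranged from -1.36 to 0.38 against wild type and from -0.21 to 1.53 between the RepB genotypes when 1 library was left out, and its sign turned without RepB+/- replicate 1. The cause was not tested beyond the smaller number of libraries. H19 lies where nearly all reads of its neighbours come from 129, so its shifts say nothing of parental copy.

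The replicate numbers do not show pairing (correlations of deviations 0.11, 0.070 and 0.19), so the block was not used. With it 1944 genes of all rose and 1675 fell in RepB+/-, against 1382 and 1036, and 1667 and 1493 in RepB-/-, against 1101 and 832. Between the RepB genotypes it gave 31 and 49, and no filter 50 and 74, against 3 and 10. Without wild-type replicate 2, 519 rose and 271 fell in RepB+/-, and 440 and 247 in RepB-/-. Of 381 checks over all results and settings, 2 reversed, 32 were weaker and 19 moved, and the others stayed the same. Low counts limit Slc22a18, Magel2, Zim1 and Nap1l5, and MEF have no replicates.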
